A study of Sus scrofa with 10 samples.

Results

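The genes described here are 9 scavenger and endocytic receptors of macrophages: CD163, MSR1, MARCO, SIGLEC1, MRC1, CD36, SCARB1, STAB1 and OLR1. They were chosen by name, and all 9 were found by gene symbol in the annotation of the array, where they had 23 of 47845 probe sets. For genes with several probe sets, the one highest on average across all 10 arrays stood for the gene, and the 9 receptors were tested among 13755 named genes. The arrays were Affymetrix Snowball arrays, a pig expression array, hybridised with RNA from alveolar macrophages of 5 Hampshire pigs, all untreated and labelled 0 h. From each pig, 1 array held non-adherent cells (n = 5) and 1 held adherent cells (n = 5). Both came from cells that had been frozen, thawed and kept overnight with recombinant human CSF-1. The non-adherent cells were then sorted by cytometry for large size and granularity. No sort is stated for the adherent cells, and the protocol text attached to them speaks of adherent cells being removed and of stimulation with lipopolysaccharide. The age of the pigs was not given in the sources used here. The adherent arrays belong to a separate, earlier series on the same pigs, so attachment, sort and array series cannot be told apart.

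Scavenger receptors are surface proteins that bind modified lipoproteins, microbial surfaces, haemoglobin complexes or dying cells and carry them into the cell. MSR1 and MARCO are trimeric class A receptors with a collagen-like stalk, CD36 and SCARB1 are class B receptors for lipids and lipoproteins, OLR1 binds oxidised low-density lipoprotein, and STAB1 and MRC1 clear matrix and glycoprotein ligands. CD163, the haemoglobin-haptoglobin receptor, and SIGLEC1, the sialic acid lectin also called sialoadhesin, are in pigs the macrophage receptors of porcine reproductive and respiratory syndrome virus (PRRSV), which infects alveolar macrophages.

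In the fit over all genes, CD163 and MSR1 were higher in non-adherent cells, and the other 7 receptors did not pass an adjusted p of 0.05. That is 2 of 9 higher and 0 lower, whereas 6.72% of all genes were called higher and 9.78% lower (limma, Benjamini-Hochberg adjustment over all genes). Much of this turned on the adherent array of animal 1. Without it, 6 of 9 receptors were higher (CD163, MSR1, MARCO, SIGLEC1, STAB1 and OLR1) and 0 lower, against 9.34% and 13.0% of all genes. When any of 8 other arrays was left out singly, 0 receptors passed, and without non-adherent animal 5, MSR1 and MARCO passed. For CD36 and SCARB1 most of the variation on the main probe set lay between animals.

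The adherent array of animal 1 differed from the others of its group. Its mean correlation across genes with the other adherent arrays was 0.952, whereas the other adherent arrays reached 0.978 to 0.979 and the non-adherent arrays 0.984 to 0.988. Of 3067 genes called without it, its value lay nearer the non-adherent than the adherent mean for 1130 (36.8%). It was the highest adherent array for 7 of the 9 receptors. In the BioB hybridisation controls it kept to its group, at 5.62 to 6.27 on the log2 scale, within the adherent range of 5.42 to 6.27 and away from the non-adherent range of 8.59 to 9.60. These controls are added to every array, so the array series also differed in a signal that does not come from the cells.

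Markers of the labelled cell type and of other cells were examined as lists. Of 12 alveolar macrophage markers 9 were measured, and their summed level lay at a log2 of 14.37 to 14.56 in non-adherent and 13.86 to 14.55 in adherent arrays. The highest adherent value was again that of animal 1, with 13.86 to 14.28 in the others. Single markers differed. The adherent array of animal 1 was the highest of its group for LYZ (12.89 against 9.82 to 11.86), PPARG, CSF2RA, AIF1 and PTPRC. It was the lowest for MERTK (9.43 against 10.77 to 11.12) and CSF2RB (10.89 against 11.66 to 11.85), and FABP4 and CD14 lay between. Of the alveolar macrophage markers 2 were higher in non-adherent cells, AIF1 (0.89) and PTPRC (0.79). PPARG was lower (-0.64, a call lost without animal 4), against 6.72% of all genes higher and 9.78% lower. FABP4, a lipid-binding protein abundant in alveolar macrophages of mice and humans, lay below the median of all probe sets (3.73 and 3.94 in the group means). Dendritic cell markers were higher in 7 of 8 measured genes, against 6.72% of all genes, and summed to 10.84 to 12.60 in non-adherent and 9.29 to 9.81 in adherent arrays. LAMP3 (3.33), CCL22 (3.18), CCL17 (2.16), FLT3 (1.91) and FSCN1 (1.78) kept their calls without any single array or animal (limma, adjusted p up to 0.0270). BATF3 did not pass (0.06, adjusted p = 0.895). The call of XCR1, a dendritic cell chemokine receptor, was lost without any of 7 single arrays, without animal 1, 2, 3 or 5 (adjusted p up to 0.130) and with arrays centred on their medians (0.0597), and that of CCR7 was lost without animal 3 (0.0554). Monocyte markers summed to 13.35 in the adherent array of animal 1, 10.57 to 12.01 in the other adherent arrays and 11.39 to 12.42 in non-adherent arrays, with 2 of 5 genes higher, 0 lower, and CCR2 and CX3CR1 below the median of all probe sets. CCR2, a monocyte chemokine receptor, was 1 of the 2 and lost its call with animals as blocks (adjusted p = 0.0559), without any of 7 single arrays, without animal 2, 3, 4 or 5 (up to 0.184), with centred arrays (0.0555) and after quantile normalization (0.0655). The other was VCAN, a matrix proteoglycan, whose call was lost without animal 3 or 5 (up to 0.0688). FCN1 went the other way without passing (-0.90, limma adjusted p = 0.241). It read 11.32 on the adherent array of animal 1 and 8.03 to 8.84 on the other adherent arrays. CX3CR1 (0.31, adjusted p = 0.0559) and LYZ (0.16, adjusted p = 0.864) did not pass either. Neutrophil markers (6 measured) summed to 12.98 to 13.42 in non-adherent and 12.64 to 13.59 in adherent arrays, T cell markers (7) to 8.74 to 9.37 and 8.82 to 9.27, and B and plasma cell markers (3) to 7.19 to 7.32 and 6.92 to 7.67, with 0 genes called in the 3 lists when all arrays were fitted without blocks in limma, and 0, 0 and 1 with an unadjusted p under 0.05. MS4A1, a B cell marker below the median of all probe sets, was higher with animals as blocks (0.52, adjusted p = 0.0350) and without the adherent array of animal 1 (0.58, adjusted p = 0.0395). CSF3R, the granulocyte colony-stimulating factor receptor of neutrophils, read 11.51 on the adherent array of animal 1 and 8.39 to 9.18 on the other adherent arrays, and was higher without that array (0.89, adjusted p = 0.00531). Epithelial markers summed to 9.36 to 9.94 and 10.11 to 11.08, with 1 of 9 lower (EPCAM, an epithelial adhesion molecule, a call lost without animal 3 or 4). SFTPC, SFTPA1 and CDH1 lay below the median of all probe sets on average, although CDH1 stood at 6.13 on the adherent array of animal 1. The part of these cell types in the receptor values was not tested, and a different share of a cell type and a different RNA level per cell cannot be told apart in such samples.

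**Figure D1:**
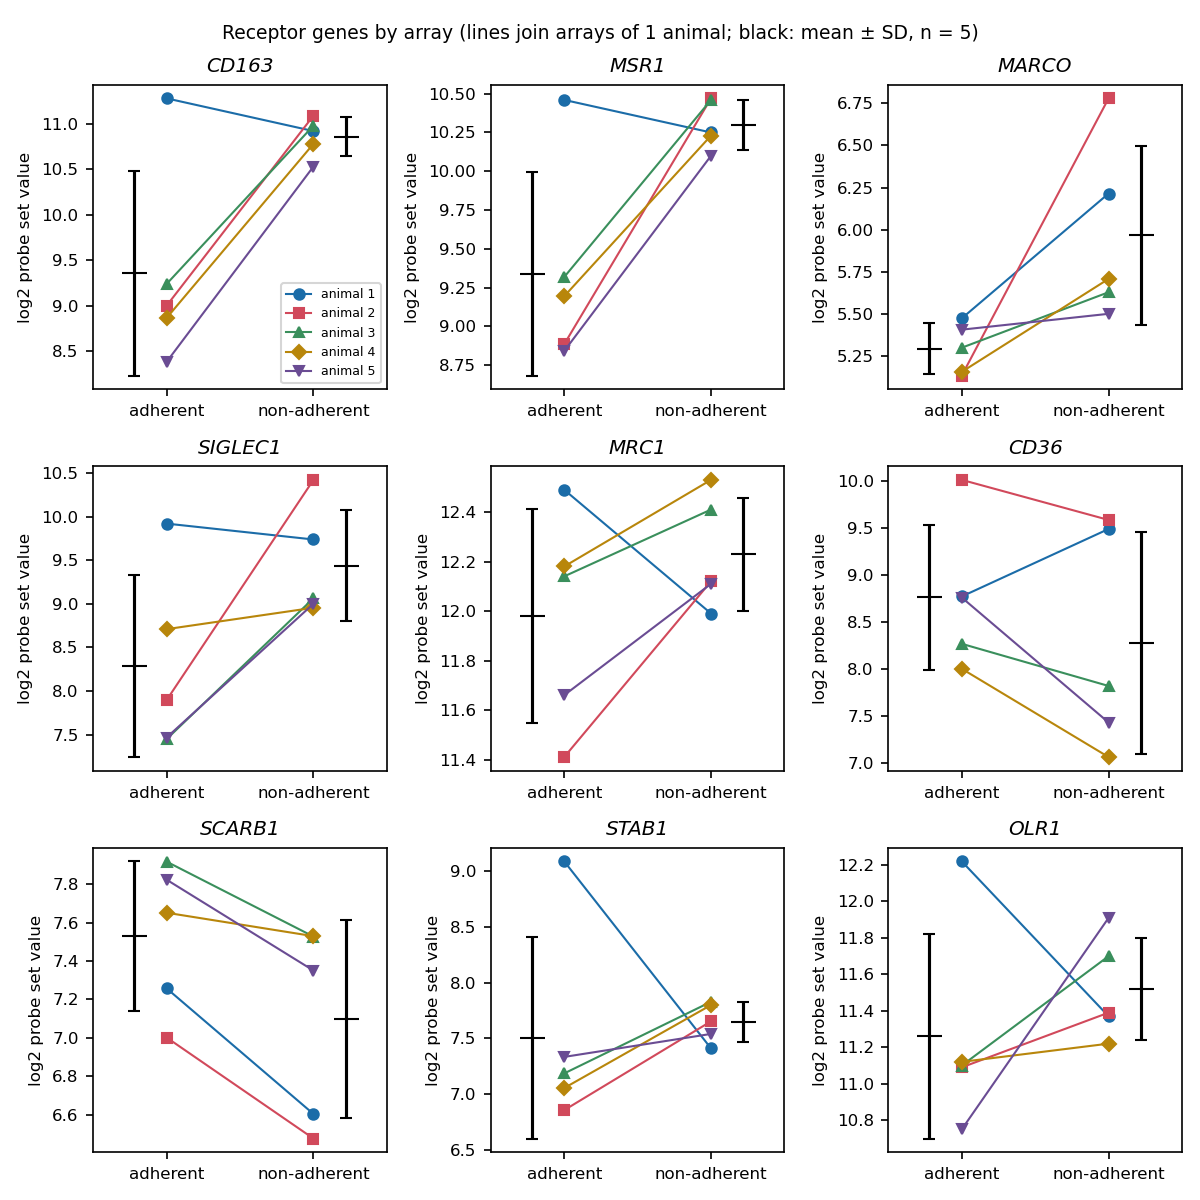
Log2 probe set values of the 9 receptor genes (vertical axes, highest-mean probe set) on the adherent and non-adherent array of each animal, with lines joining the arrays of 1 animal and black bars for the mean ± SD of 5 arrays. CD163 and MSR1 lie between 8.38 and 9.32 in adherent animals 2 to 5 and at 10.10 or above in the other 6 arrays.

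CD163 takes up haemoglobin bound to haptoglobin and is shed from the cell by proteases. Its log2 values were 10.92, 11.09, 10.98, 10.78 and 10.53 in non-adherent animals 1 to 5, and 11.28, 8.999, 9.24, 8.86 and 8.38 in adherent animals 1 to 5. The 4 adherent arrays of animals 2 to 5 thus lay below every non-adherent array, while the adherent array of animal 1 was the highest of all 10. The group means were 10.86 ± 0.22 and 9.35 ± 1.12 (SD, n = 5 each), a 2.85-fold difference with a log2 difference of 1.51 ± 0.44 (SE, limma, adjusted p = 0.0384) and a 95% interval of 0.54 to 2.48. Within animals 2 to 5 the differences were similar, at 2.09, 1.75, 1.92 and 2.15, whereas animal 1 had -0.36. With the adherent array of animal 1 left out, the spread of the adherent group fell to an SD of 0.36 and the difference was 1.99 ± 0.17 (adjusted p = 3.88e-05). Omitting any 1 of the remaining 9 arrays ended the call, with adjusted p-values up to 0.0868, and so did omitting both arrays of animal 2, 3, 4 or 5 (up to 0.139).

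A second CD163 probe set lay far lower, at a mean of 3.44 that is below the median of all probe sets (5.02). Its values were 3.80, 3.92, 4.002, 3.57 and 3.38 in non-adherent and 3.00, 3.26, 3.40, 3.03 and 3.00 in adherent cells. Here the adherent array of animal 1 did not stand out, and the non-adherent value was higher in 5 of 5 animals, although the groups overlapped slightly. The difference was 0.60 ± 0.13 (adjusted p = 0.0167 in the fit over all probe sets). In that same fit the main CD163 probe set did not pass, with an adjusted p of 0.0520. The call of the second probe set was lost without both arrays of animal 1 (adjusted p = 0.0512), 2 (0.0558) or 4 (0.0573).

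MSR1, a class A receptor for acetylated and oxidised lipoproteins, followed CD163 array by array. Its values were 10.25, 10.47, 10.46, 10.23 and 10.10 in non-adherent animals 1 to 5 and 10.46, 8.88, 9.32, 9.19 and 8.84 in adherent animals 1 to 5. Again 4 adherent arrays lay below all non-adherent arrays and that of animal 1 lay among them. Non-adherent cells had a mean of 10.30 ± 0.16 and adherent cells 9.34 ± 0.66 (SD, n = 5 each), a difference of 0.96 ± 0.26 (adjusted p = 0.0308) or 1.95-fold. Without the adherent array of animal 1 the difference was 1.24 ± 0.13 (adjusted p = 9.53e-05). The call did not pass when any of 8 arrays was left out (adjusted p up to 0.0730); it passed without the adherent array of animal 1 and without non-adherent animal 5. Omitting both arrays of animal 2, 3, 4 or 5 likewise ended the call (adjusted p up to 0.123). The array carried 1 probe set for MSR1.

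MARCO, the other class A receptor measured, binds bacteria and inhaled particles. Its values were 6.21, 6.78, 5.63, 5.71 and 5.50 in non-adherent cells, with animals 1 and 2 highest, and 5.47, 5.14, 5.30, 5.16 and 5.41 in adherent cells. The mean of 5.63 over the 10 arrays was the lowest of the 9 receptors. It lay not far above the median of all probe sets (5.02), which limits what can be read from small differences. The groups did not overlap, and MARCO was the only receptor among the 9 with this property on all 10 arrays, beside 15.0% of all genes (6.35% higher and 8.63% lower). It was also higher in 5 of 5 animals, as were 15.3% of all genes. The difference of 0.67 ± 0.22 did not pass (adjusted p = 0.0579), and the smallest gap, in animal 5, was 0.09. In contrast to CD163, the spread was larger among the non-adherent arrays (SD 0.53) than among the adherent ones (SD 0.15). Leaving out the adherent array of animal 1 gave 0.72 ± 0.23 (adjusted p = 0.0461), and leaving out non-adherent animal 5 also gave a call (adjusted p = 0.0403). MARCO passed too with a random animal effect (adjusted p = 0.0394) and when only genes above the median level were tested (0.0492), in fits that called 9.23% and 8.40% of all genes higher.

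SIGLEC1 binds sialic acids on other cells and on virus particles. The main probe set read 9.74, 10.42, 9.06, 8.96 and 9.001 in non-adherent animals 1 to 5, and 9.92, 7.90, 7.45, 8.71 and 7.47 in adherent animals 1 to 5. The adherent arrays of animals 2 to 5 lay below all non-adherent arrays, but adherent animal 4 came within 0.25 of its own non-adherent array. The spread was wide in both groups, with SDs of 0.64 and 1.04 that stood at the 98.1 and 98.3 percentiles of all genes. The mean difference was 1.15 ± 0.47 and did not pass (adjusted p = 0.120), with an interval of 0.11 to 2.18. It passed with array weights (1.33, adjusted p = 0.0148), without the adherent array of animal 1 (1.55 ± 0.34, adjusted p = 0.00791) and without both arrays of that animal (adjusted p = 0.0201).

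The other 3 SIGLEC1 probe sets gave smaller differences of 0.72 ± 0.47, 0.16 ± 0.42 and 0.12 ± 0.46, and none passed (adjusted p = 0.363, 0.848 and 0.904). On each of them the adherent array of animal 1 was the highest adherent array, at 9.16, 8.71 and 9.48 on the log2 scale. All 4 SIGLEC1 probe sets shared a feature among the non-adherent arrays, where animals 1 and 2 lay above animals 3 to 5. Without the adherent array of animal 1, the first of the 3 passed (1.18 ± 0.28, adjusted p = 0.0210) and the others did not (0.59 ± 0.22 and 0.56 ± 0.28, adjusted p = 0.111 and 0.225).

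**Figure D2:**
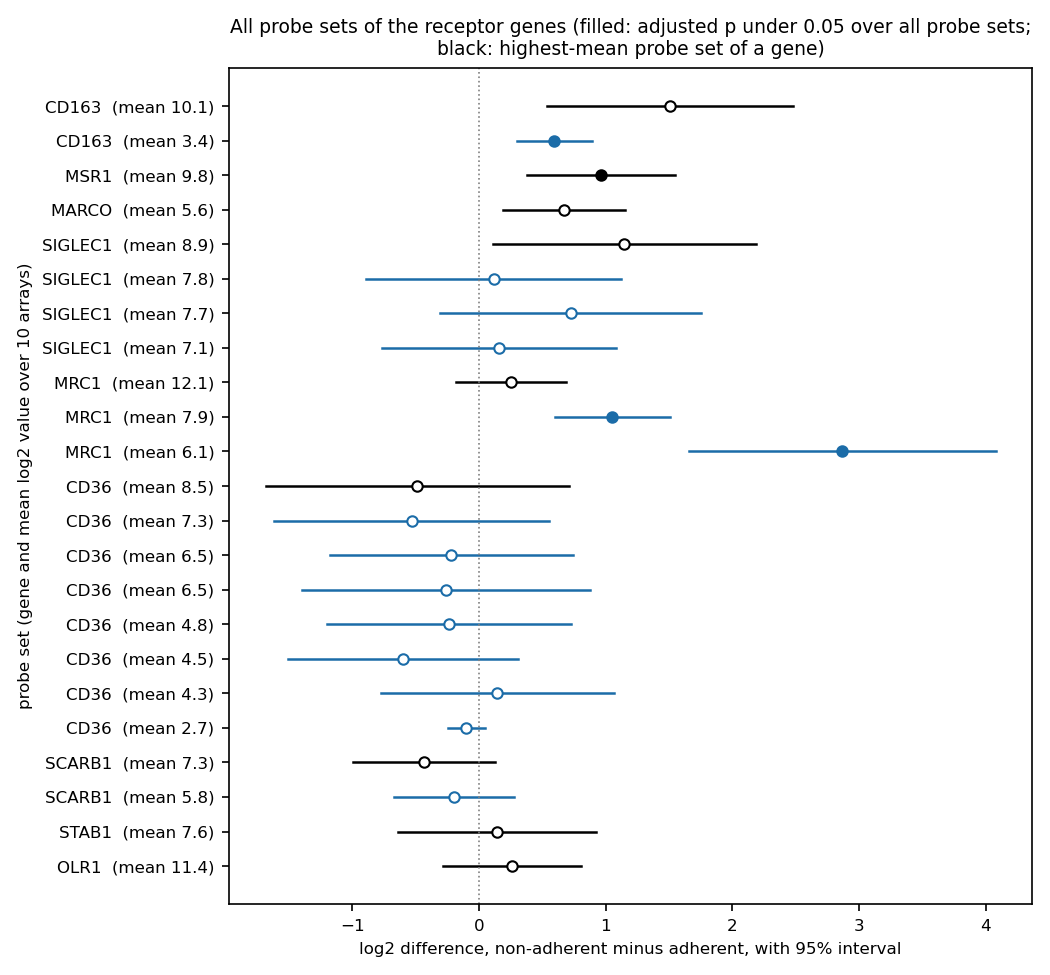
Log2 difference, non-adherent minus adherent, with its 95% interval (horizontal axis) for the 23 probe sets of the 9 receptor genes, labelled by gene and mean log2 value over the 10 arrays. Filled points passed an adjusted p of 0.05 over all probe sets: 1 of CD163, the single one of MSR1 and 2 of MRC1.

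MRC1, the mannose receptor of macrophages and some dendritic cells, depended on the probe set. The probe set with the highest level lay near the top of the scale, at 11.99, 12.12, 12.41, 12.53 and 12.11 in non-adherent and 12.49, 11.41, 12.14, 12.18 and 11.66 in adherent cells. The groups overlapped, and the difference of 0.25 ± 0.20 did not pass (adjusted p = 0.415), with an interval of -0.18 to 0.68. A second probe set read 8.23, 8.43, 8.58, 8.91 and 7.84 in non-adherent and 7.02, 7.77, 7.19, 7.60 and 7.13 in adherent cells. The remaining one read 7.10, 7.50, 7.81, 8.06 and 7.40 against 3.20, 5.03, 3.53, 6.61 and 5.17.

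On these last 2 MRC1 probe sets the groups did not overlap, and the adherent array of animal 1 was the lowest of all 10. Their differences were 1.05 ± 0.21 (adjusted p = 0.00871) and 2.87 ± 0.55 (adjusted p = 0.00805), and both were higher in 5 of 5 animals. Both calls were kept when any single array was left out, and both were lost without the 2 arrays of animal 3 (adjusted p = 0.0630 and 0.0525). In all, 3 of the 23 receptor probe sets had groups that did not overlap (these 2 and that of MARCO), beside 11.2% of all probe sets (5.35% higher and 5.81% lower). Of the 23, 4 were called, all higher, against 10.8% of all probe sets called, 4.73% higher and 6.04% lower. Without the adherent array of animal 1, 9 of 23 were called, all higher, against 5.97% of all probe sets higher and 7.64% lower. With all probe sets of a gene averaged, MRC1 passed at 1.39 (adjusted p = 0.00287), which made 3 of 9 receptors higher (CD163, MSR1 and MRC1) beside 6.20% of all genes higher and 15.7% called in either direction. Dendritic cell markers, listed above, were higher in the same arrays, and their part in the MRC1 values was not tested.

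**Figure D3:**
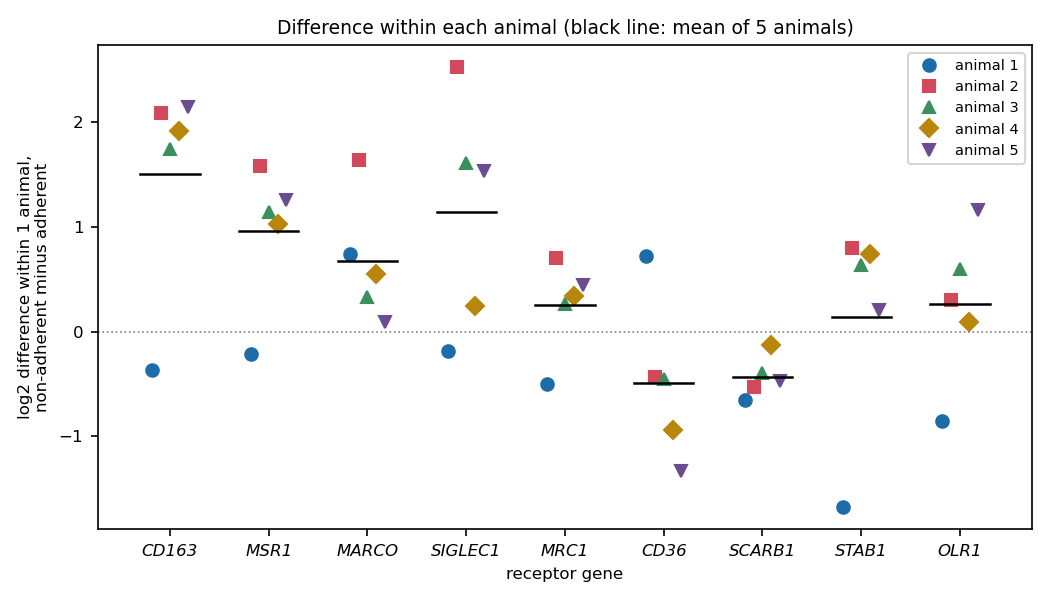
Log2 difference between the non-adherent and the adherent array of each of 5 animals (vertical axis) for the 9 receptor genes, with a black line at the mean. Animal 1 lies below 0 for CD163, MSR1, SIGLEC1, MRC1, STAB1 and OLR1, where the other 4 animals lie above 0, and SCARB1 lies below 0 in all 5.

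STAB1, or stabilin-1, is an endocytic receptor for the matrix protein SPARC and for dying cells. Its 1 probe set gave 7.41, 7.65, 7.83, 7.80 and 7.54 in non-adherent cells and 9.09, 6.86, 7.19, 7.06 and 7.33 in adherent cells. The adherent array of animal 1 exceeded every other array by more than 1 on the log2 scale, and the other adherent arrays lay just below the non-adherent ones. The difference of 0.14 ± 0.35 did not pass (adjusted p = 0.825). Without that array it was 0.54 ± 0.12 (adjusted p = 0.00984). OLR1, the lectin-like receptor of oxidised low-density lipoprotein, read 11.37, 11.39, 11.70, 11.22 and 11.91 in non-adherent and 12.22, 11.09, 11.10, 11.12 and 10.75 in adherent cells. Its difference of 0.26 ± 0.25 did not pass (adjusted p = 0.508), and without the adherent array of animal 1 it was 0.50 ± 0.15 (adjusted p = 0.0318). With that array left out, 6 receptors (CD163, MSR1, MARCO, SIGLEC1, STAB1 and OLR1) had groups that did not overlap, all higher in non-adherent cells, as did 9.25% of all genes.

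CD36, the class B receptor for long-chain fatty acids and oxidised lipids, varied mostly by animal on its main probe set. Its values in animals 1 to 5 were 9.49, 9.58, 7.82, 7.06 and 7.43 in non-adherent and 8.77, 10.01, 8.26, 7.998 and 8.76 in adherent cells. The 4 arrays of animals 1 and 2 lay above the other 6, although adherent animals 1 and 5 were nearly equal. The difference between groups was -0.49 ± 0.54 (adjusted p = 0.582), with an interval of -1.68 to 0.70, and the value was higher in 1 of 5 animals. The SD of 1.18 among non-adherent arrays stood at the 99.8 percentile of all genes. The other 7 CD36 probe sets gave differences between -0.60 and 0.15, none past the threshold. On 6 of the 8, both non-adherent arrays of animals 1 and 2 lay above those of animals 3 to 5. The exceptions were 2 probe sets with means of 4.50 and 2.66, below the median of all probe sets. Among the 6, those with means of 4.835 and 4.341 also lay below that median. Over both groups, the arrays of animals 1 and 2 lay above all others on 2 of the 8, and on the rest they overlapped.

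SCARB1, the class B receptor that takes up cholesterol from high-density lipoprotein, showed the opposite order of animals. Its values were 6.60, 6.48, 7.53, 7.53 and 7.35 in non-adherent and 7.26, 7.001, 7.92, 7.65 and 7.82 in adherent animals 1 to 5. Animals 1 and 2 were the lowest in both groups, and within every animal the non-adherent array was lower, by 0.65, 0.53, 0.39, 0.12 and 0.47. A decrease in 5 of 5 animals was found for 16.5% of all genes. Across animals the groups overlapped, and the difference of -0.43 ± 0.25 did not pass (adjusted p = 0.273). With animals as blocks the same difference had an SE of 0.10 and passed (adjusted p = 0.0253). The second SCARB1 probe set also had animals 1 and 2 lowest in both groups and was lower in 5 of 5, at -0.20 ± 0.22 (adjusted p = 0.608), and it did not pass with animals as blocks (adjusted p = 0.197).

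**Figure D4:**
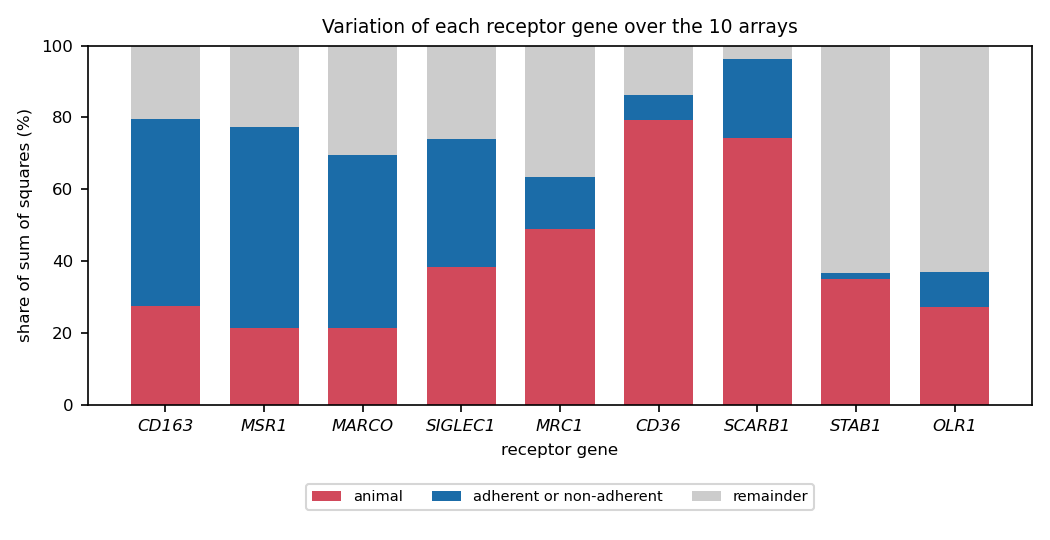
Share of the sum of squares over 10 arrays (vertical axis, percent) that goes with the animal, with the group (adherent or non-adherent) and with the remainder, for each of the 9 receptor genes. The animal takes 79.3% for CD36 and 74.4% for SCARB1, while the group takes 52.1% for CD163 and 55.9% for MSR1.

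These patterns can be set out as shares of each gene's sum of squares over the 10 arrays. The animal accounted for 79.3% of CD36 and 74.4% of SCARB1, at the 95.1 and 92.3 percentiles of all genes, whose median share was 38.8%. The group, in which attachment, sort and array series cannot be told apart, went with 52.1% of CD163, 55.9% of MSR1, 48.3% of MARCO and 35.5% of SIGLEC1. The median share of the group over all genes was 20.8%. For MRC1 the animal took 49.0% and the group 14.4%, and for STAB1 and OLR1 63.4% and 62.9% went with neither. The share depended on the probe set for SIGLEC1, where the animal took 38.4% on the main probe set and 54.4%, 58.1% and 68.7% on the others. These shares describe 5 animals and carry no test. The animal has more levels than the group, so noise alone gives it a larger share.

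With animals as blocks, CD163 and MSR1 were higher and SCARB1 lower, 3 of 9 receptors, where 7.85% of all genes were higher and 10.4% lower. With the block and without both arrays of animal 1, 6 receptors were higher and 2 lower (CD36 and SCARB1). In that fit, which was chosen after the data were seen, 25.4% of all genes were called, 11.5% higher and 13.9% lower. CD36 then stood at -0.79 ± 0.16 (adjusted p = 0.00693) and MRC1 at 0.44 ± 0.11 (adjusted p = 0.0162), and MARCO alone did not pass (0.65 ± 0.22, adjusted p = 0.0613).

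The genes whose values over the 10 arrays were most like those of CD163 were found by Pearson's r among 9610 other named genes above the median level. MSR1 was the closest, with r = 0.986, and r = 0.971 once the group means were removed. JMJD1C, a histone demethylase family member, followed with 0.984 (0.969 with group means removed), then TM6SF1, a transmembrane protein, with 0.975 (0.957), HHEX, a homeobox factor of blood and liver development, with 0.974 (0.948), and TIAF1 with 0.969 (0.937). None of these last 4 passed in the fit over all arrays (log2 differences of 0.57 to 1.22, adjusted p from 0.05003 to 0.0679), and each shared with CD163 a high adherent array of animal 1. Without that array all 4 were higher (0.77 to 1.59, limma adjusted p from 0.000114 to 0.000963), in a fit that called 9.34% of all genes higher. These 4 genes were picked for likeness to CD163, which was itself higher in that fit, so their calls follow from the choice. Their r without that array stayed between 0.964 and 0.981, which still holds the group difference. No r was computed with both that array and the group means removed.

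SIGLEC1 was most like GPCPD1, a phosphodiesterase of phospholipid metabolism, with r = 0.955 (0.935 with group means removed). TLR3, the endosomal sensor of double-stranded RNA, was next at 0.951 (0.949) and stood at 0.983 without the adherent array of animal 1. VRTN (0.950), the protease inhibitor SERPINB1 (0.933) and the telomere nuclease DCLRE1B (0.930) completed the 5. The arrays come in pairs from 5 animals and share preparation, so these values describe likeness only.

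Of 17 other scavenger receptors outside the 9, 14 were measured, and 0 were called in limma in either direction with all arrays, without the adherent array of animal 1 or with animals as blocks. All genes were called at 6.72% higher and 9.78% lower with all arrays. The shares were 9.34% and 13.0% without the adherent array of animal 1, and 7.85% and 10.4% with animals as blocks. With probe sets averaged, 0 of the list were higher and 1 lower, beside 6.20% and 9.49% of all genes. At an unadjusted p under 0.05, 1 gene passed: STAB2, a hyaluronan receptor related to STAB1, with a difference of 0.30 ± 0.11 (adjusted p = 0.0805) at a level below the median of all probe sets. It was higher in 5 of 5 animals, as were 15.3% of all genes. The groups did not overlap, as for 6.35% of all genes in that direction. They nearly met, however, at 4.45 in non-adherent animal 5 and 4.447 in adherent animal 2. STAB2 passed with array weights (0.34, limma adjusted p = 0.0391), in a fit that called 9.92% of all genes higher. The median difference of the list was 0.02, beside 0.01 over all genes. Among 18 measured apoptotic cell receptors and bridging proteins, 0 were higher and 2 lower (all genes 6.72% and 9.78%). These were RAC1, a GTPase that drives engulfment (-0.30 ± 0.08, adjusted p = 0.0246), and MFGE8, which links dying cells to integrins (-0.66 ± 0.17, adjusted p = 0.0255). Neither passed with animals as blocks (adjusted p = 0.0595 and 0.0537). Without the adherent array of animal 1 the counts were 2 higher and 2 lower, beside 9.34% and 13.0% of all genes. The call of RAC1 was lost without non-adherent animal 1 or 5 or adherent animal 2, that of MFGE8 without non-adherent animal 1 or 3 or adherent animal 5 (adjusted p up to 0.0625). Omitting any whole animal ended the call of RAC1 (up to 0.0940), and omitting animal 3, 4 or 5 that of MFGE8 (up to 0.0806).

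Other lectins of sialic acid and mannose had 2 of 13 measured genes higher and 1 lower, beside 6.72% and 9.78% of all genes. LMAN1, a cargo lectin of the early secretory pathway, was higher by 0.65 ± 0.16 (adjusted p = 0.0206) and CLEC7A, the beta-glucan receptor dectin-1, by 0.45 ± 0.13 (adjusted p = 0.0409). M6PR, which sorts enzymes to lysosomes, was lower by -0.62 ± 0.10 (adjusted p = 0.00213). CLEC7A did not pass with animals as blocks (adjusted p = 0.0523), without any of 8 single arrays (up to 0.0917), without animal 2, 3, 4 or 5 (up to 0.165) or with its probe sets averaged (0.0877). LMAN1 also lost its call when probe sets were averaged (0.36, adjusted p = 0.107) and without animal 3 or 4 (up to 0.0674). The counts without the adherent array of animal 1 were 2 higher and 3 lower, beside 9.34% and 13.0% of all genes.

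**Figure D5:**
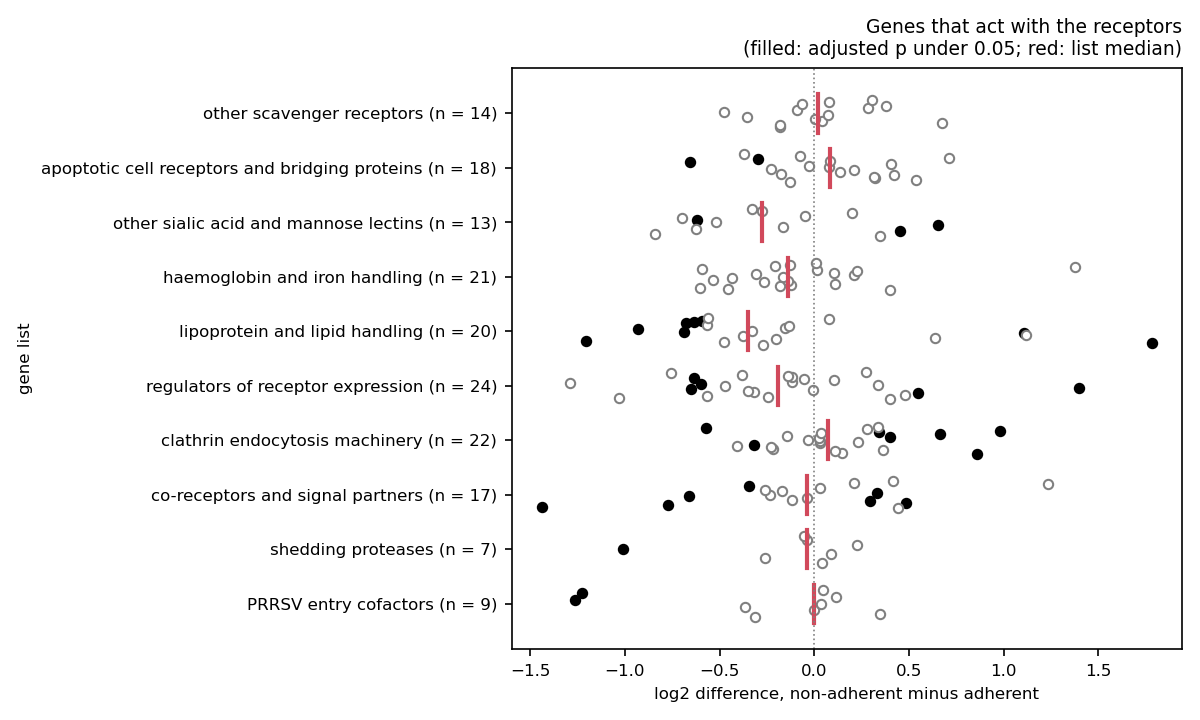
Log2 differences, non-adherent minus adherent (horizontal axis), of the measured genes in 10 lists of genes that act with the receptors, 1 point per gene, filled where the adjusted p was under 0.05, with the list median in red. Lipoprotein and lipid handling holds 2 filled points above 0 and 6 below, and haemoglobin and iron handling holds none.

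Genes that handle the cargo of the receptors were taken next. Of 21 genes of haemoglobin and iron handling, which process what CD163 brings in, 0 were called in the limma fit with all arrays. In that fit 6.72% of all genes were higher and 9.78% lower. An unadjusted p under 0.05 was found for 7 of the 21. The share of all genes under that cut is not given, here or for the lists above, so these counts are not read as results. BACH1, the haem-sensing repressor, had the lowest p (0.40 ± 0.13, adjusted p = 0.0616). Without the adherent array of animal 1, 1 was higher (BACH1, 0.52, adjusted p = 0.00239) and 5 were lower, beside 9.34% and 13.0% of all genes. With animals as blocks 0 were higher and 2 lower, beside 7.85% and 10.4% of all genes. BACH1 did not pass with its probe sets averaged (0.15, adjusted p = 0.4845). Of 20 genes of lipoprotein and lipid handling, 2 were higher and 6 lower, beside 6.72% and 9.78% of all genes, with a median difference of -0.35. NCEH1, a cholesteryl ester hydrolase, was higher by 1.11 ± 0.20 (adjusted p = 0.00402), and ABCG1, a cholesterol exporter, by 1.78 ± 0.41. The liver X receptor NR1H2 was lower by -0.93 ± 0.09 (adjusted p = 0.000132), and NPC1, which moves cholesterol out of lysosomes, by -0.69 ± 0.08 (adjusted p = 0.000313). ABCG1 was called with all arrays (adjusted p = 0.0140) and not with its probe sets averaged (0.75, adjusted p = 0.126) or without animal 2, 3 or 5 (up to 0.0712). The counts of this list without the adherent array of animal 1 were 2 and 8, beside 9.34% and 13.0% of all genes.

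Regulators of the receptors, meaning transcription factors and cytokine receptors known to set their levels in macrophages, had 2 of 24 measured genes higher and 3 lower, near the 6.72% and 9.78% of all genes. IL13RA1, a subunit of the receptors for interleukin-4 and interleukin-13, was higher by 1.40 ± 0.18 (adjusted p = 0.000746), and IFNAR1, a chain of the type I interferon receptor, by 0.55 ± 0.12 (adjusted p = 0.00957). PPARG, which controls CD36 and the alveolar macrophage programme, was lower by -0.64 ± 0.14 (adjusted p = 0.0124), and IL10RB, a chain of the interleukin-10 receptor, by -0.65 ± 0.17 (adjusted p = 0.0229). Omission of a whole animal ended the calls of IFNAR1 (animal 3, adjusted p = 0.0518), PPARG (animal 4, 0.0513) and IL10RB (animal 2, 3, 4 or 5, up to 0.108). The call of IL10RB was also lost without non-adherent animal 2 or 3 or adherent animal 3 or 5 (up to 0.0553). With the adherent array of animal 1 left out, 4 were higher and 6 lower, beside 9.34% and 13.0% of all genes.

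The machinery that internalises the receptors had 5 of 22 measured clathrin genes higher and 2 lower, beside 6.72% and 9.78% of all genes. The counts were also 5 and 2 without the adherent array of animal 1, beside 9.34% and 13.0%. RAB5B, an early endosome GTPase, was higher by 0.98 ± 0.16 (adjusted p = 0.00211) and PICALM, a clathrin assembly protein, by 0.34 ± 0.08 (adjusted p = 0.0115). SNX9, which helps to pinch off vesicles, was lower by -0.57 ± 0.09 (adjusted p = 0.00221), and the clathrin light chain CLTA by -0.32 ± 0.09 (adjusted p = 0.0388). CLTA did not pass with animals as blocks (adjusted p = 0.0845), with its probe sets averaged (0.0625), without any of 7 single arrays (up to 0.0869) or without animal 1, 2, 3 or 5 (up to 0.160). PICALM did not pass without animal 4 or 5 (up to 0.0549).

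Among 17 measured co-receptors and signal partners, 3 were higher and 4 lower, beside 6.72% and 9.78% of all genes. LYN, a kinase that signals from CD36, was higher by 0.33 ± 0.08 (adjusted p = 0.0172), and FCER1G, an adaptor chain, by 0.30 ± 0.08 (adjusted p = 0.0225). The tetraspanins CD81 and CD9 were lower, by -1.44 ± 0.19 (adjusted p = 0.000747) and -0.77 ± 0.18 (adjusted p = 0.0154). FCER1G did not pass with animals as blocks (adjusted p = 0.0523) or without adherent animal 5 (0.0542), and CD9 did not pass with its probe sets averaged (-0.41, adjusted p = 0.108). Omission of a whole animal ended the calls of LYN (animal 3, 4 or 5), FCER1G (animal 1, 2, 3 or 5) and CD9 (animal 3 or 5), with adjusted p up to 0.0946. With the adherent array of animal 1 left out, 2 were higher and 5 lower, beside 9.34% and 13.0% of all genes.

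Of 7 measured proteases and regulators listed for shedding, the process that releases CD163 from the surface, 0 were higher and 1 lower, beside 6.72% and 9.78% of all genes. This was FURIN, a proprotein convertase that matures such proteases, by -1.01 ± 0.23 (adjusted p = 0.0120), a call lost without animal 2, 3 or 5 (up to 0.0628). Of 9 measured cofactors named for entry of PRRSV besides the receptors, 0 were higher and 2 lower against the same shares: MYH9, a non-muscle myosin, by -1.27 ± 0.24 (adjusted p = 0.00524), and the heparan sulfate carrier SDC4, by -1.23 ± 0.32 (adjusted p = 0.0236). SDC4 did not pass without non-adherent animal 1 or 3 or adherent animal 5 (up to 0.0584), or without both arrays of animal 1, 2 or 3 (up to 0.0872). Without the adherent array of animal 1, 2 shedding genes and 4 PRRSV cofactors were lower and 0 higher, beside 13.0% and 9.34% of all genes.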

How the data were processed

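The deposited values were log2 probe set values for 10 arrays, 5 non-adherent and 5 adherent. RMA and Partek are named, per the submitters' processing notes. The sources used here do not state whether both array series were normalized jointly. Array medians were 4.97 to 5.09, and the number of arrays limits the precision. The platform annotation gave 26426 probe sets a single gene symbol, and 21419 were unnamed here. Non-adherent was compared with adherent with limma 3.58.1 (R 4.3.3; lmFit, then eBayes; 2-sided), with Benjamini-Hochberg adjustment over 13755 genes, or over 47845 probe sets where a single probe set is described. Every adjusted p comes from this tool.

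Titles and the series design name the same 5 animals, so arrays with the same animal number are paired. Their deviations from the group means correlated at 0.116 to 0.398 across genes, but adherent 1 correlated better with another animal (0.212). Alternatives were animals as blocks, a random animal effect, leaving out each animal or array, centring, quantile normalization, a level filter, trended variance, array weights and the mean of probe sets. The block without animal 1 was added after the data were seen.

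The 9 receptors and the gene lists were chosen with earlier results of these data known. From each list, up to 2 called genes per direction are named, lowest adjusted p first, or else the one with the lowest p; for CD163 and SIGLEC1 the 5 genes most alike by r are named. CD68, CD33, CSF1R and further listed genes carried no named probe set and are not analysed here. Simulated data had 13755 genes, of which 67, 67 and 66 were changed by a log2 of 0.5, 1 and 2. Of these, 38.8% were recovered at 0.5, 82.1% at 1 and 93.9% at 2. The simulated noise was independent, with no pairing by animal and no deviating array. There 152 genes were called, against 2270 in the data, so these rates need not hold for the real arrays. Figures were drawn with matplotlib 3.10.9.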

Additional observations from a re-analysis of the deposited data

Results flagged for a closer look

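Within each group of 5 arrays, the gap of the highest or lowest array to its nearest neighbour was divided by the range of the group, and a ratio above 0.71 (Dixon's 95% critical value) was taken as a sample far from the others. In 46 such groups (23 receptor probe sets in 2 groups), 5 ratios exceeded it, where chance flags about 1 in 20 of independent groups. The adherent array of animal 1 gave 4 of the 5. These were STAB1 (0.786), OLR1 (0.748) and the SIGLEC1 probe sets with differences of 0.12 (0.783) and 0.72 (0.739). The other was the CD36 probe set with a difference of 0.15, on which the adherent array of animal 2 stood high (0.765). The 46 groups are not independent, because they share the same arrays and some genes have several probe sets. The rate over all probe sets is not given here.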

How the results depend on the processing

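Over the 5 animals and 10 arrays left out in turn, the number of genes past the threshold ranged from 1119 (without animal 3) to 3067 (without the adherent array of animal 1), beside 2270 with all arrays. The number of probe sets past the threshold ranged from 2289 to 6511, beside 5155. Receptors called ranged from 0 to 6, beside 2. The log2 differences ranged from 1.27 to 1.99 for CD163, 0.80 to 1.25 for MSR1, 0.43 to 0.82 for MARCO, 0.80 to 1.55 for SIGLEC1, 0.11 to 0.44 for MRC1, -0.81 to -0.17 for CD36, -0.57 to -0.28 for SCARB1, -0.021 to 0.60 for STAB1 and 0.037 to 0.54 for OLR1. STAB1 stood at -0.019 without adherent animal 2 and -0.021 without both arrays of animal 2, and was also just negative without animal 4. MRC1 was lowest and CD36 closest to 0 without adherent animal 2, and SCARB1 was closest to 0 without non-adherent animal 2. The SIGLEC1 probe sets at 0.12 and 0.16 changed sign without animal 2, among other omissions (ranges -0.23 to 0.56 and -0.11 to 0.59). CD36 probe sets with negative differences turned positive without adherent animal 2 (-0.46 to 0.13, -0.58 to 0.063 and -0.51 to 0.070). The CD36 probe set at 0.15 (-0.11 to 0.44) turned negative without non-adherent animal 1 or 2, without both arrays of animal 1 and with array weights (-0.039).

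With animals as blocks, which the pairing of arrays by animal allows, the counts were 2506 genes past the threshold and 5580 probe sets past the threshold, and SCARB1 passed (-0.43, adjusted p = 0.0253). The block changed no other call among the 9 receptors. With the block and without animal 1, 3495 genes and 8 receptors were called, among them SIGLEC1 (1.48), MRC1 (0.44), CD36 (-0.79), SCARB1 (-0.38), STAB1 (0.60) and OLR1 (0.54), while the CD36 probe set at 0.15 stood at -0.088. MARCO passed at 0.67 with a random animal effect and among genes above the median level, SIGLEC1 at 1.33 with array weights (adjusted p = 0.0148), and MRC1 at 1.39 with probe sets averaged. Centring arrays on their medians, quantile normalization and trended variance left the calls of all 9 receptors as they were. The cause of these changes was not tested. Of the 23 receptor probe sets, 5 lay below the median of all probe sets, where signal over background limits what can be read.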
